A study of Mus musculus with 18 samples.

Results

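Imprinted genes are genes expressed mainly from the copy inherited from one parent. In this series of cultured embryonic fibroblasts of the mouse (MEFs), which are connective-tissue cells taken from embryos, 10 of them were examined among the 55487 genes of the count table: Mest, H19, Igf2, Dlk1, Meg3, Peg3, Plagl1, Grb10, Cdkn1c and Ndn. The set was put together around Mest because Mest was among the genes that differed most between the replicate numbers in earlier results of these data, and the other 9 are widely studied imprinted genes, most of them tied to growth. Levels by replicate number are therefore given as a description. Counts of genes that differed by number are given only beside the share of all genes. Comparisons between uracil doses were tested.

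The cells were grown for 24 h in full growth medium with fetal bovine serum and vehicle (control, 0 µM), 10 µM uracil or 30 µM uracil, and total RNA was sequenced from 6 libraries per dose, numbered 1 to 6 in the labels. Uracil is the base that the enzyme uridine phosphorylase-1 releases from uridine, and the comparison asks whether it alters gene expression in fibroblasts. The study calls its replicates biological. Genotype, strain, embryo age and whether a replicate number marks an embryo, a culture or a day are not given in the sources used here. No order of the numbers is given either, so they are used as names only.

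Imprinting is set in the germ line by DNA methylation at control regions, many of which lie at or near CG-rich promoters. Many imprinted genes sit in clusters that share 1 such region. Genes expressed from the paternal copy tend to favour fetal growth and those expressed from the maternal copy tend to restrain it. Of the 10 genes, 6 are paternally expressed (Mest, Igf2, Dlk1, Peg3, Plagl1 and Ndn) and 4 are maternally expressed (H19, Meg3, Grb10 and Cdkn1c). H19 and Meg3 are long non-coding RNAs and the other 8 encode proteins. Counts per gene do not separate the parental copies, so the values are total levels and say nothing about which copy was active.

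On GRCm39, 5 of the genes lie on chromosome 7. H19 (142129262 to 142133957) and Igf2 (142204503 to 142220694) are neighbours there on the minus strand, and Cdkn1c (143012069 to 143014806), Peg3 (6706882 to 6733468) and Ndn (61995473 to 62000010) lie apart from them. Dlk1 (109418749 to 109429262) and Meg3 (109506877 to 109538165) are neighbours on the plus strand of chromosome 12. Mest lies on chromosome 6 (30723546 to 30752058, plus strand), Plagl1 on chromosome 10 (12936248 to 13007438) and Grb10 on chromosome 11 (11880498 to 11988683).

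Mest, Ndn and Peg3 are 3 of the 4 genes whose variance was most tied to the replicate number (the other, H19, has no entry). The sequences shown first are the 250 bases upstream of their starts, given for their CG content. They are RefSeq sequences on GRCm38.p6, 5′ to 3′ on the gene's strand, with each CG in capitals (CG reads the same on both strands). RefSeq gave 15 promoter windows for 8 of the 10 genes, and H19 and Cdkn1c had no entry.
Mest, chr6:30737800-30738049, plus strand: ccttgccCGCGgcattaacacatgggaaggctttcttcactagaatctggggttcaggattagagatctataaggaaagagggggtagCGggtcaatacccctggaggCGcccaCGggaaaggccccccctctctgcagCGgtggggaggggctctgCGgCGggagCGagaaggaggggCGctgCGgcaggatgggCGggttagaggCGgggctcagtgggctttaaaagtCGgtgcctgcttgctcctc
Ndn, chr7:62348027-62348276, plus strand: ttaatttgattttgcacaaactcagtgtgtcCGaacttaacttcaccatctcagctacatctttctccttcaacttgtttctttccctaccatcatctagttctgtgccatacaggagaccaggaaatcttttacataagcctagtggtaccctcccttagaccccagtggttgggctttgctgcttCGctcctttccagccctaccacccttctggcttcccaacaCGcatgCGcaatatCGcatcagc
Peg3, chr7:6730420-6730669, minus strand: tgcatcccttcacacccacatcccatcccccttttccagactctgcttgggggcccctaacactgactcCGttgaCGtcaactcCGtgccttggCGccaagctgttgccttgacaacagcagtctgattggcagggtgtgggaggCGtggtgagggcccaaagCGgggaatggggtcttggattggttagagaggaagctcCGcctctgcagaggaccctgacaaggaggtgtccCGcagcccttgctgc
The upstream sequence held 14 CGs for Mest, 8 for Peg3 and 5 for Ndn, against a median of 6 over the 32851 promoter windows of the table, of which 92.1% held at least 1 CG. At least 14 CGs were found in 29.4% of all windows, at least 8 in 43.0% and at least 5 in 55.6%. The Mest window shown is 1 of 3 for this gene, and another starts at chr6:30733256 with 7 CGs upstream. Methylation was not measured here, so these letters describe the promoters and not their state.

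Mest and H19 also each hold a microRNA, as do Igf2 (miR-483) and Meg3 (miR-770), whose microRNAs are not shown. The mature sequences from Mest and H19 are shown because a host gene's RNA is their precursor. They are RefSeq sequences, with the seed (bases 2 to 8), which directs target pairing, in capitals.
miR-335-5p, within Mest: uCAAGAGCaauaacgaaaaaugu
miR-335-3p, within Mest: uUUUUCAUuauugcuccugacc
miR-675-5p, within H19: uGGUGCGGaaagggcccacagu
miR-675-3p, within H19: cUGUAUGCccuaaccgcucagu
The 4 seeds differ from one another. Counts for the gene of miR-335 were 0 to 3 per library and those for the gene of miR-675 were 0 in every library. These libraries were not made for small RNAs, so such counts do not measure the mature microRNAs.

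3 libraries stood apart from the rest. Unaligned reads made up 54.2% of control replicate 1, 37.9% of 30 µM replicate 6 and 5.24% of 10 µM replicate 6, against 1.72% to 3.59% in the other 15, and counts assigned to genes, in units of 1e6 reads (M), ranged from 3.96 M in control replicate 1 to 20.8 M. The study set aside 1 vehicle and 1 30 µM sample because of human RNA, without naming them in the labels. Fn1, which encodes the matrix protein fibronectin, was at 14769 counts per 1e6 gene counts (CPM) in control replicate 1, 15686 CPM in 30 µM replicate 6, 12901 CPM in 10 µM replicate 6 and 6056 to 9341 CPM in the other 15. Levels are given for all 18 libraries or for the 15 without these 3, as stated. The 15 libraries hold 2 of number 1, 1 of number 6 and 3 of each other number. Of 9 fibroblast markers none was at 0 in every library, and Col1a2 (8719 to 13960 CPM), Col1a1 (6053 to 32745 CPM), Vim (4775 to 6186 CPM) and Col3a1 (2698 to 4577 CPM) had the highest CPM of them.

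Levels spanned more than 3 orders among the 10 genes. Per kilobase of annotated exon, over the 15 libraries, H19 was the highest at 141 ± 25.9 CPM per kb, followed by Grb10, an adaptor that binds the insulin and IGF receptors, at 134 ± 4.44 (SD, n = 15 for each gene). Dlk1, a transmembrane protein that is also shed, was at 11.03 ± 2.19 CPM per kb, Mest, a protein of the hydrolase fold, at 10.4 ± 4.79, and the zinc finger protein Peg3 at 8.60 ± 1.08. Ndn, a MAGE family protein that restrains cell growth, was at 6.94 ± 1.53 CPM per kb, the zinc finger transcription factor Plagl1 at 2.79 ± 0.605 and Meg3 at 2.33 ± 0.232. Cdkn1c, a cyclin-dependent kinase inhibitor, was at 0.623 ± 0.172 CPM per kb, and the fetal growth factor Igf2 came last at 0.0485 ± 0.0417. Neighbours in this order did not differ by more than both SDs for H19 and Grb10, for Dlk1, Mest and Peg3, and for Plagl1 and Meg3, and they did at the other steps. Mest had the largest SD relative to its mean among the 8 genes above 1 CPM per kb.

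Igf2 rested on 0 to 16 counts per library and did not pass the filter on low counts, and Cdkn1c passed it with 0 to 33 counts. The other 8 genes had at least 95 counts in each library. A count of 0, as for Cdkn1c in control replicate 1, allows up to 3 counts, and in that shallow library 3 counts (the Igf2 value) came to 0.808 CPM. This floor covers counting error only. So 9 of the 10 genes passed the filter.

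Mest was high in replicate numbers 1 to 3 and low in 4 to 6 at every dose, with the libraries of 1 number close together. In the control, 10 µM and 30 µM libraries in turn, Mest was at 155, 143 and 139 CPM in number 1 and at 122, 131 and 115 CPM in number 2. It was at 93.9, 96.7 and 91.4 CPM in number 3 and at 50.05, 53.9 and 53.5 CPM in number 4. It was at 45.7, 44.9 and 46.1 CPM in number 5 and at 38.2, 37.2 and 40.4 CPM in number 6. The ranges of the 6 numbers did not overlap one another. The mean of number 1 was 3.77 times that of number 6 (146 against 38.6 CPM, n = 3 each), while the highest of the 3 libraries of a number was at most 1.13 times the lowest. From highest to lowest, the order of the 6 numbers was the same at all 3 doses for Mest. This held for 26 of the 13865 genes tested (0.188%), with Mest the only member among them. Mest was chosen because it differed by number, so nothing is read from this share. Technical measures were divided by number as well. In the 15 libraries, reads left out for low alignment quality were 4.79% to 7.17% in numbers 1 to 3 and 7.76% to 13.1% in numbers 4 to 6. Counts assigned to genes were 13.7 M to 20.8 M and 11.6 M to 14.2 M. The part of read quality and depth in the levels by number was not tested.

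**Figure D1:**
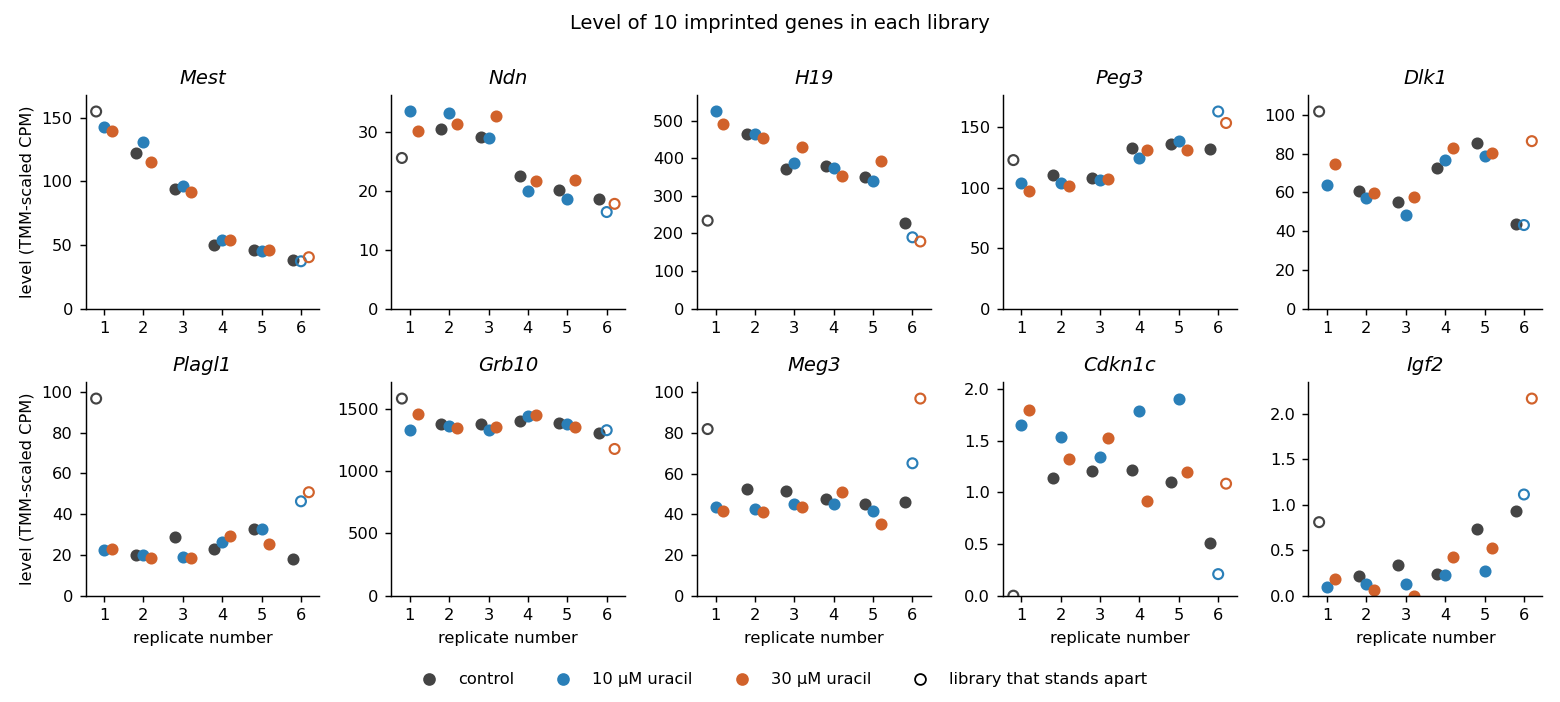
Level (TMM-scaled CPM, y axis from 0) of each of the 10 genes in each of the 18 libraries by replicate number (x axis), with the dose as colour. Open circles are the 3 libraries that stand apart. Mest, Ndn and H19 were high in number 1 and low in number 6 apart from H19 in control replicate 1, Peg3 was low in numbers 1 to 3, and Grb10 lay between 1180 and 1585 CPM throughout.

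Ndn followed the numbers as Mest did, in 2 levels. Over the 15 libraries Ndn was at 31.8 ± 2.33 CPM in number 1 (n = 2), 31.7 ± 1.42 in number 2 and 30.3 ± 2.12 in number 3 (SD, n = 3 each). It was at 21.4 ± 1.33 CPM in number 4, 20.2 ± 1.62 in number 5 (n = 3 each) and 18.6 in the 1 library of number 6. The lowest library of numbers 1 to 3 (29.0 CPM) was above the highest of numbers 4 to 6 (22.6 CPM). With all 18 libraries the 2 groups of numbers were still apart, as control replicate 1 was at 25.6 CPM.

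H19, which restrains growth in the placenta and embryo, was highest in number 1 as well. Its mean was 508 ± 23.4 CPM in number 1 (n = 2), 462 ± 6.12 in number 2 and 397 ± 30.9 in number 3 (n = 3 each). It was 369 ± 13.7 CPM in number 4, 361 ± 27.7 in number 5 (n = 3 each) and 228 in the 1 library of number 6. Numbers 3, 4 and 5 overlapped. Control replicate 1 went against its number, with H19 at 234 CPM where the 10 µM and 30 µM libraries of number 1 were at 524 and 491 CPM.

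Peg3, a zinc finger protein linked to maternal behaviour and to cell death, ran the other way. Its level was 100 ± 4.83 CPM in number 1 (n = 2), 105 ± 4.30 in number 2 and 107 ± 0.670 in number 3 (n = 3 each). It was 129 ± 4.66 CPM in number 4, 135 ± 3.73 in number 5 (n = 3 each) and 132 in the 1 library of number 6. The highest library of numbers 1 to 3 (110 CPM) was below the lowest of numbers 4 to 6 (124 CPM). Over all 18 libraries control replicate 1, at 123 CPM, came closest to the higher group.

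Dlk1 had a pattern of its own. It was highest in number 5 (81.7 ± 3.43 CPM) and number 4 (77.5 ± 5.41), lower in number 1 (69.2 ± 7.78, n = 2), number 2 (59.1 ± 1.92) and number 3 (53.8 ± 4.85), and lowest in the single library of number 6 (43.5 CPM). In number 6, 10 µM replicate 6 was at 43.2 CPM, whereas 30 µM replicate 6 was at 86.5 CPM. Plagl1 was highest in number 5 (30.3 ± 4.14 CPM) and lowest in number 6 (17.8 CPM, 1 library), with 22.7 ± 0.659 CPM in number 1.

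Grb10 and Meg3 had similar levels across the numbers. Number means over the 15 libraries were 1308 to 1433 CPM for Grb10, a 1.10-fold range, and 40.7 to 48.0 CPM for Meg3, a 1.18-fold range, beside 3.69-fold for Mest, 2.22-fold for H19, 1.88-fold for Dlk1, 1.71-fold for Ndn and 1.35-fold for Peg3. Cdkn1c was at 1.30 to 1.72 CPM in numbers 1 to 5 and at 0.505 CPM in number 6. Igf2 was at 0.133 to 0.155 CPM in numbers 1 to 3, on 0 to 7 counts per library, and at 0.296, 0.509 and 0.926 CPM in numbers 4, 5 and 6, on 3 to 11 counts.

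So the genes did not fall together over the numbers. In the 15 libraries Mest, Ndn and H19 were highest in numbers 1 and 2 and lowest in number 6. Peg3 was higher in numbers 4 to 6 than in 1 to 3, and so were the number means of the scarce Igf2. By library, Igf2 overlapped between these groups, at 0.338 CPM in control replicate 3 (7 counts) and 0.223 CPM in 10 µM replicate 4 (3 counts). Dlk1 and Plagl1 were highest in number 5, and Grb10 and Meg3 stayed within narrow ranges. Replicate number alone accounted for 99.6% of the variance of log2 CPM of Mest over the 15 libraries, 95.5% for Peg3, 94.99% for H19, 94.5% for Ndn and 92.5% for Dlk1. It accounted for 68.1% for Plagl1, 67.5% for Igf2, 66.7% for Cdkn1c, 58.2% for Grb10 and 38.7% for Meg3, against a median of 51.9% over all genes tested. Over all 18 libraries the shares were 99.5% for Mest, 92.2% for Ndn, 84.0% for Peg3, 73.9% for H19, 69.4% for Igf2, 57.4% for Grb10, 55.4% for Dlk1, 40.0% for Meg3, 30.2% for Plagl1 and 27.3% for Cdkn1c, against a median of 40.8%. Plagl1 was then highest in number 1 (47.3 CPM), and the number means of Meg3 reached 69.4 CPM, a 1.71-fold range. In the model with number and dose, number was past the threshold for 12.6% of the 13865 genes tested and for 4 of the 9 members tested (Mest, H19, Peg3 and Ndn). Nothing is read from this count, since Mest was chosen by this contrast.

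**Figure D2:**
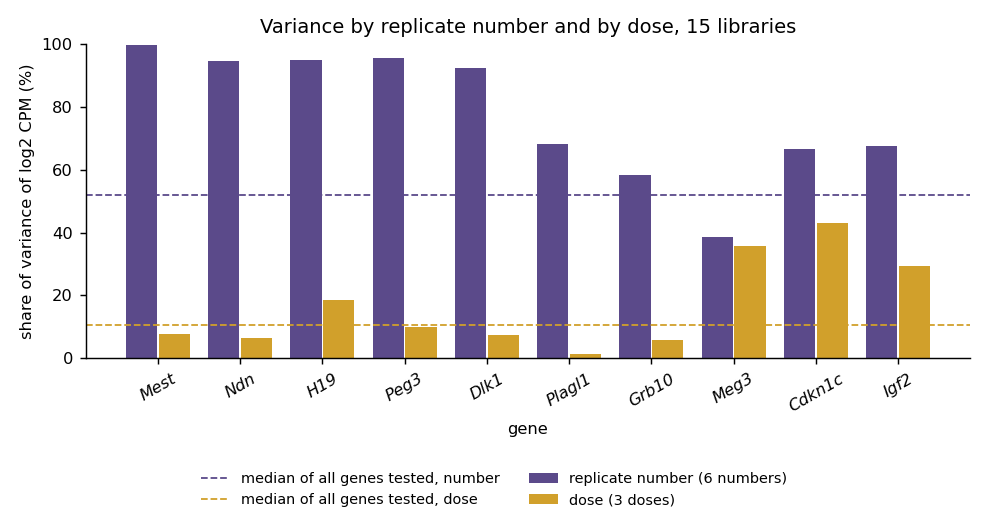
Share of the variance of log2 CPM (%, y axis from 0) that replicate number or dose accounts for when taken alone, for each gene over 15 libraries. The 2 shares can add to more than 100% because the 15 libraries are not balanced, and dashed lines are the medians over all genes tested (51.9% for number, 10.6% for dose). Number stands at 99.6% for Mest and 38.7% for Meg3.

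Correlations of log2 CPM over the 15 libraries describe the same grouping. The libraries of 1 number resemble each other, so the 15 points stand for only 6 numbers and no test was made. The Pearson correlation with Mest was 0.95 for Ndn and 0.83 for H19, and −0.96 for Peg3 and −0.73 for Igf2, which rests on few counts. It was −0.47 for Plagl1, −0.33 for Dlk1, −0.06 for Grb10, 0.05 for Meg3 and 0.45 for Cdkn1c. Among the 10658 genes of at least 5 mean CPM ranked by correlation with Mest, Ndn was at rank 38, H19 at rank 453 and Peg3 at rank 10650, near the opposite end. Dlk1 correlated most with Plagl1 (0.76) and Grb10 (0.71), and the neighbours Dlk1 and Meg3 at −0.22.

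**Figure D3:**
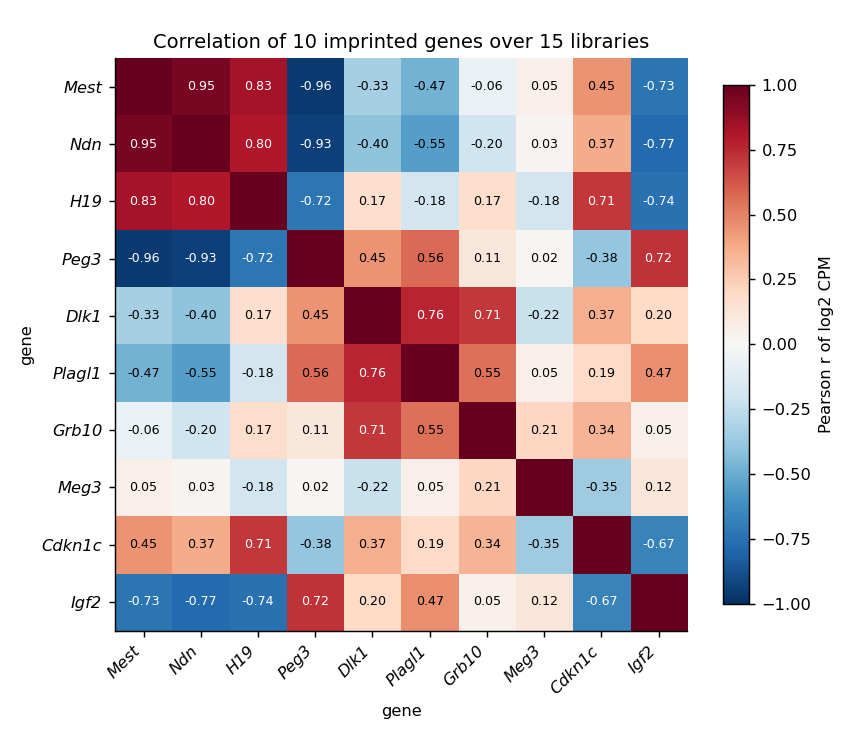
Pearson correlation of log2 CPM between each pair of the 10 genes over the 15 libraries, as colour from −1 to 1 and as a number. Mest, Ndn and H19 form a block of high positive values (0.80 to 0.95), Peg3 and Igf2 are opposite to that block, and Meg3 is near 0 to Mest (0.05). Igf2 rests on few counts.

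The 5 genes with the highest correlation with Mest over the 15 libraries were Rtl3 (0.990), which derives from a retrotransposon gag gene, the water channel Aqp1 (0.983), the thrombin receptor Thbd (0.981), the chondroitin sulfate enzyme Csgalnact1 (0.979) and the fibril-associated collagen Col12a1 (0.977). From number 1 to number 6 the means differed as 26.1 against 4.04 CPM for Rtl3 and as 40.1 against 16.5 CPM for Aqp1. Col12a1 was at 3076 CPM in number 1 and 1910 CPM in number 6.

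Marker genes of other cell types moved with the numbers too. The summed level of 8 mesothelial or epithelial markers, none of them at 0 in every library, was 103 to 121 CPM in numbers 1 to 3 and 193 to 265 CPM in numbers 4 to 6, in the 15 libraries. Number 5 had the highest sums (228 to 265 CPM), and the 1 library of number 6 was at 194 CPM. Msln, a mesothelial surface protein, was at 31.2 CPM in number 1 and 105 CPM in number 5, Krt19 at 62.5 and 77.6, Upk3b at 5.60 and 35.5, Wt1 at 5.74 and 12.7, and Krt8 at 3.78 and 9.32. The summed level of 4 cartilage markers was 26.1 to 36.9 CPM in numbers 1 to 3 and 9.19 to 18.5 CPM in numbers 4 to 6, mainly through Col2a1 (26.2 CPM in number 1, 4.12 in number 6), with Matn1 at or near 0. Over the same 15 libraries the summed level of 4 adipocyte markers, with Adipoq at 0, was 10.8 to 14.3 CPM in numbers 1 to 4 and 8.33 to 10.2 CPM in numbers 5 and 6, and that of 4 neural and glial markers, nearly all of it Tubb3, was 38.0 to 46.3 CPM in numbers 1 to 4 and 27.2 to 34.7 CPM in numbers 5 and 6. Replicate number was past the threshold for 4 of 6 mesothelial or epithelial, 2 of 3 cartilage, 2 of 2 adipocyte and 0 of 1 neural and glial markers tested, and for 4 of 8 fibroblast markers, beside 12.6% of all genes. Sums were at most 1.67 CPM for 5 skeletal muscle markers with Myod1 at 0 in every library, 8.62 CPM for 4 endothelial markers, nearly all of it Kdr, and 4.32 CPM for 4 blood markers. The part of these cell types in the levels of Mest, Ndn, H19 and Peg3 was not tested, and in bulk RNA fewer cells of a type and less RNA per cell cannot be told apart.

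In the libraries that stood apart, Meg3 and Plagl1 were higher than in every other library, while Mest stayed near its number. Meg3 was at 81.9 CPM in control replicate 1, 65.1 CPM in 10 µM replicate 6 and 96.9 CPM in 30 µM replicate 6, and between 35.4 and 52.4 CPM in all other 15. Plagl1 was at 96.7, 46.3 and 50.8 CPM in these 3 libraries and between 17.8 and 32.9 CPM in the other 15. Mest in the same 3 libraries was within 1.10 times the mean of the other libraries of its number (1.10, 0.974 and 1.06 times). H19 in control replicate 1 was at 0.461 times that mean, and Dlk1 in 30 µM replicate 6 was at 1.99 times the 1 other library of its number.

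Doses were compared next, and none of the 9 members tested passed the threshold in any comparison. At 10 µM against control 0 of 9 members passed an adjusted p of 0.05 in edgeR's quasi-likelihood test, and the count was also 0 for 30 µM against control, for the 2 doses against each other and for a slope on dose. Over all 13865 genes 0 were called in each of these comparisons (0% called), also in DESeq2. At an unadjusted p under 0.05, 0 of the 9 members passed in any of these comparisons, where 96 genes did at 10 µM, 595 at 30 µM, 323 between the doses and 757 for the slope. The 2 contrasts with control share the 6 control libraries.

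Mest ranged from 38.2 to 155 CPM in control (median 72.0), from 37.2 to 143 CPM at 10 µM (median 75.3) and from 40.4 to 139 CPM at 30 µM (median 72.5), so that the 3 groups overlapped almost wholly. The change from control (log2) came to 0.02 ± 0.43 with 10 µM (SE, 95% interval −0.89 to 0.93) and to −0.03 ± 0.43 with 30 µM (−0.95 to 0.88). This fit has no term for the replicate number, so these intervals hold the spread between the numbers. Without the 3 libraries the groups no longer held the same numbers (control lacked number 1 and both uracil groups lacked number 6), and the values were 0.41 and 0.33, with adjusted p = 0.998 and 0.945 in edgeR.

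H19 had a median of 361 CPM in control (228 to 465), 381 CPM at 10 µM (190 to 524) and 412 CPM at 30 µM (179 to 491). The change from control (log2) came to 0.17 ± 0.25 with 10 µM and 0.18 ± 0.25 with 30 µM (adjusted p = 1.00 and 0.966). The groups overlapped, and in 3 of 6 numbers H19 exceeded the control library sharing its number, at either dose.

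Grb10 had the smallest standard errors of the 9 members in this fit. It ranged from 1308 to 1585 CPM in control, 1329 to 1445 CPM at 10 µM and 1180 to 1461 CPM at 30 µM, and its log2 fold changes were −0.04 ± 0.06 (95% interval −0.17 to 0.08) and −0.05 ± 0.06 (−0.18 to 0.08). Peg3, with medians of 127, 115 and 119 CPM over the 3 groups, had −0.0019 ± 0.13 and −0.04 ± 0.13. Ndn, with medians of 24.1, 24.5 and 26.0 CPM, had 0.04 ± 0.20 and 0.09 ± 0.20. For these genes the groups overlapped and the intervals held 0.

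Dlk1 had medians of 66.5, 60.3 and 77.6 CPM in control, 10 µM and 30 µM, with log2 fold changes of −0.18 ± 0.19 and 0.09 ± 0.19. At 30 µM it was higher than at 10 µM in 6 of 6 numbers, by 0.26 ± 0.19 (95% interval −0.13 to 0.66, adjusted p = 1.00 in edgeR), and by 0.13 ± 0.18 without the 3 libraries. Plagl1 had medians of 26.0, 24.3 and 24.3 CPM and log2 fold changes of −0.33 ± 0.39 and −0.36 ± 0.39, which were −0.04 and −0.10 without the 3 libraries. Its control mean held the 96.7 CPM of control replicate 1.

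Meg3 ranged from 45.1 to 81.9 CPM in control (median 49.5), from 41.6 to 65.1 CPM at 10 µM (median 44.4) and from 35.4 to 96.9 CPM at 30 µM (median 42.7). Over 18 libraries the change from control (log2) came to −0.18 ± 0.21 with 10 µM and −0.07 ± 0.21 with 30 µM. Without the 3 libraries the spread was smaller and it was −0.16 ± 0.07 and −0.20 ± 0.07, with unadjusted p = 0.0458 and 0.0156 and adjusted p = 0.998 and 0.944 in edgeR. In those 15 libraries 4.72% and 4.33% of all genes were under an unadjusted p of 0.05 and 0 were called.

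Cdkn1c was at 0 to 1.21 CPM in control, 0.209 to 1.91 CPM at 10 µM and 0.916 to 1.79 CPM at 30 µM, on counts of 0 to 33. Its log2 fold changes were 0.53 ± 0.37 and 0.45 ± 0.38, and in 5 of 6 numbers it was higher than control at either dose. Without the 3 libraries the values were 0.64 ± 0.22 and 0.36 ± 0.23, with unadjusted p = 0.00963 and 0.127 and adjusted p = 0.998 and 0.944 in edgeR. Control then lacked number 1, where Cdkn1c was highest, and both uracil groups lacked number 6, where it was lowest. With the replicate number also in that fit as a block, the values were 0.43 ± 0.22 (95% interval −0.027 to 0.88) and 0.16 ± 0.23. Igf2, which did not pass the filter and was not tested in these fits, had 3 to 11 counts per control library, 2 to 16 at 10 µM and 0 to 14 at 30 µM. In the fit with no filter on low counts its log2 fold changes were −0.64 ± 0.80 (95% interval −2.32 to 1.04) and −0.20 ± 0.79 (−1.86 to 1.47). Changes of this size could not be told from 0 on so few counts.

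**Figure D4:**
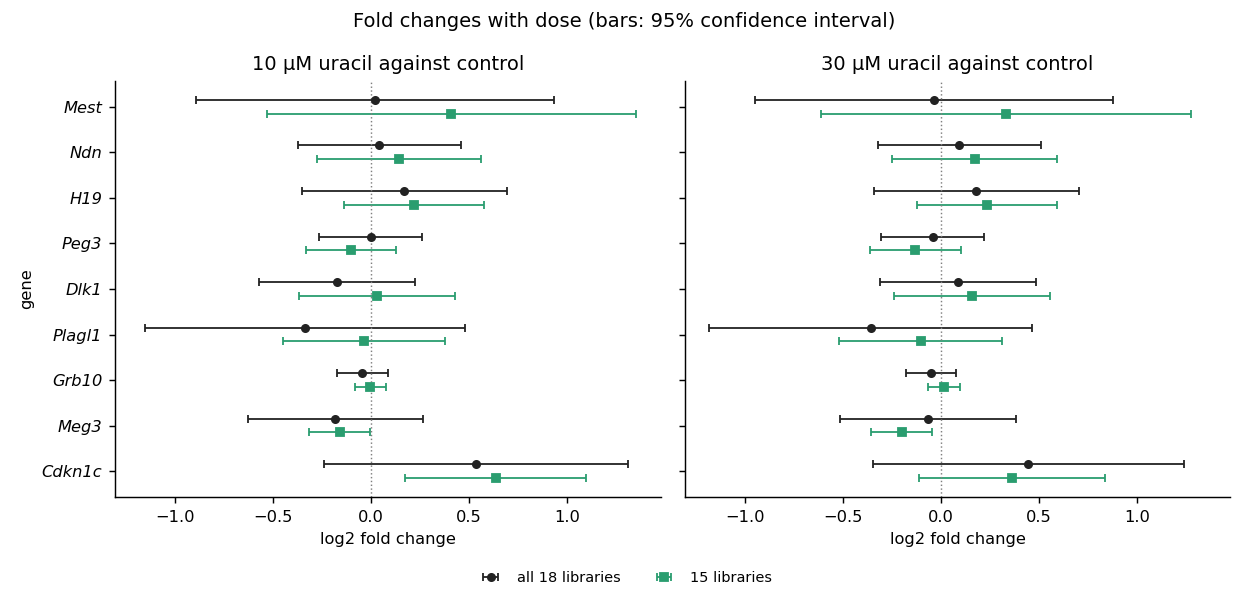
Log2 fold change (x axis) of the 9 members tested at 10 µM and 30 µM uracil against control, with 95% confidence intervals, for all 18 libraries (circles) and for the 15 without the libraries that stand apart (squares). All intervals over 18 libraries hold 0. Those of Meg3 at both doses and of Cdkn1c at 10 µM over 15 libraries do not, although no adjusted p was under 0.05, and those of Mest are the widest over 15 libraries. Neither fit has a term for the replicate number, and over 15 libraries the dose groups hold different numbers.

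Mean CPM of all 10 genes was also compared by a two-sided exact permutation test of 6 against 6 libraries, in 20 comparisons with control (smallest possible p = 0.00216). The smallest p was 0.104, for Cdkn1c at 30 µM (1.31 against 0.859 CPM), and the adjusted p was 0.998 for each. For Igf2 the means were 0.326 CPM at 10 µM, 0.559 CPM at 30 µM and 0.544 CPM in control (exact permutation p = 0.355 and 0.985).

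The neighbouring pairs were compared as ratios within each library. H19 and Igf2 share 1 control region and enhancers and are expressed from opposite copies, and so are Meg3 and Dlk1. The log2 ratio of H19 to Igf2 (on CPM + 0.5) was 8.35 ± 0.83 in control, 8.88 ± 1.04 at 10 µM and 8.69 ± 1.39 at 30 µM (SD, n = 6 each), and 30 µM did not differ from control by more than the spread (difference 0.34, two-sided exact permutation p = 0.634). As Igf2 lay at 0 to 2.17 CPM, this ratio depends on the pseudocount, and with 0.1 CPM in place of 0.5 the difference was 0.74 (exact permutation p = 0.457). The log2 ratio of Meg3 to Dlk1 was −0.34 ± 0.36, −0.36 ± 0.54 and −0.58 ± 0.45 (difference of 30 µM from control −0.24, exact permutation p = 0.331). This test does not use the replicate number. Without the 3 libraries the ratios of H19 to Igf2 were 8.52 ± 0.80, 9.28 ± 0.40 and 9.22 ± 0.59 (SD, n = 5 each). Those of Meg3 to Dlk1 were then −0.35 ± 0.40, −0.55 ± 0.32 and −0.73 ± 0.30, in groups that held different replicate numbers.

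**Figure D5:**
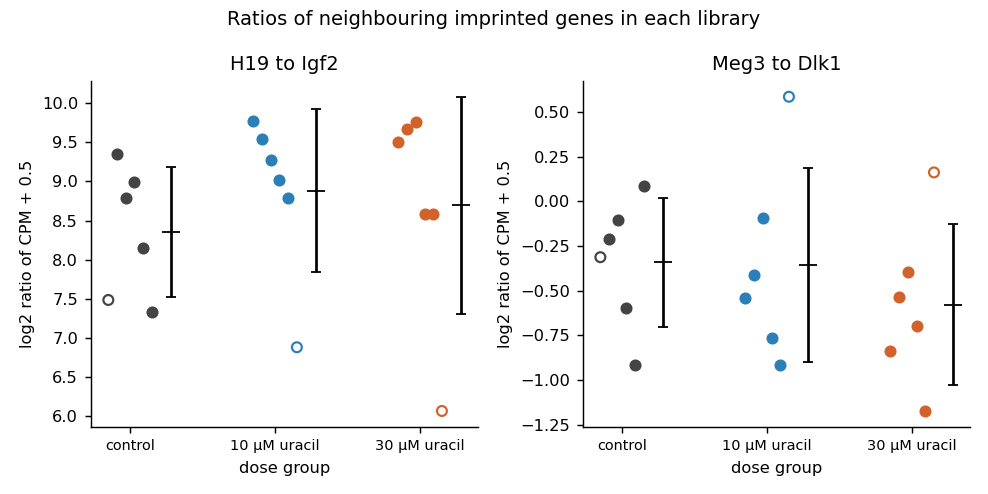
Log2 ratio of CPM + 0.5 (y axes, not starting at 0) of H19 to Igf2 and of Meg3 to Dlk1 in each library by dose, with points from left to right in the order of their replicate number, open circles for the libraries that stand apart, and the mean ± SD (n = 6) beside them. The doses overlap in both ratios, and the lowest H19 to Igf2 values (6.07 and 6.88) belong to 30 µM and 10 µM replicate 6.

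Further imprinted genes gave no call either. Of 54 further imprinted genes, 5 were at 0 in every library (Slc22a3, Calcr, Klf14, Snurf and Kcnk9) and 39 passed the filter. At 30 µM against control 0 of 39 were past the threshold in either direction. At an unadjusted p under 0.05, 3 were higher and 1 lower, and the median log2 fold change of the 39 was 0.03. The highest CPM, not scaled for length, belonged to Gnas, which encodes a G protein subunit (1076 CPM on average), Igf2r, the receptor that clears IGF2 (673 CPM), Cd81 (480 CPM) and the non-coding Rian of the Dlk1 and Meg3 cluster (329 CPM). The smallest p belonged to Tssc4 (0.21 ± 0.07), H13 (0.14 ± 0.05) and Osbpl5 (0.14 ± 0.06), with an adjusted p of 0.931 for each in edgeR. Replicate number was past the threshold for 8 of the 39, beside 12.6% of all genes tested (Nnat, Ppp1r9a, Rian, Dio3, Ddc, Dcn, Rasgrf1 and Impact).

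Copg2, which overlaps Mest on the other strand and encodes a coat protein of transport vesicles, had 280 to 1295 counts per library and 63.7 CPM on average. The strand setting of the counting is not given in the sources used here, so reads of Mest and Copg2 in the shared part cannot be told apart if strand was ignored. Other overlapping genes had at most 6 counts in a library. Among them, the protein-coding Gm49394 spans all of Igf2 on the same strand and had 0 counts in every library. How reads shared by Gm49394 and Igf2 were counted is not given in the sources used here. The part of this overlap in the low counts of Igf2 was not tested.

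Genes that maintain imprints, 12 in all, were all tested, and 0 were past the threshold in either direction at either dose. Trim28, the corepressor that holds methylation at imprinted regions, had the highest CPM (572) and a log2 fold change of 0.17 ± 0.09 at 30 µM, followed by the maintenance methyltransferase Dnmt1 (269 CPM, 0.13 ± 0.09), its partner Uhrf1 (135 CPM, 0.06 ± 0.09) and the insulator protein Ctcf (84.0 CPM, −0.07 ± 0.05). Zfp445, a zinc finger protein that binds imprinted regions, had −0.09 ± 0.06. By replicate number, 1 of the 12 was past the threshold (Dnmt3a), beside 12.6% of all genes.

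Genes that act with IGF2 were tested in full as well, and 0 of 15 were past the threshold in either direction at either dose. After Igf2r, the highest CPM belonged to the receptor Igf1r (237 CPM, log2 fold change 0.01 ± 0.27 at 30 µM), Igfbp4, which binds IGFs (137 CPM, 0.13 ± 0.28) and the adaptor Irs1 (115 CPM, −0.12 ± 0.14), and the smallest p after these belonged to Igfbp2 (0.28 ± 0.14). By replicate number 7 of the 15 were past the threshold, beside 12.6% of all genes (Igf1, Irs2, Igfbp3, Igfbp4, Igfbp5, Igfbp6 and Pappa). Igfbp4 was at 101, 93.9 and 97.7 CPM in numbers 1 to 3 and at 172, 201 and 149 CPM in numbers 4 to 6, as Peg3 and the mesothelial markers were higher there. The genes of the 3 lists named here for replicate number were named after their values were seen.

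Cell cycle genes, which Cdkn1c and Ndn restrain, showed 0 of 12 past the threshold for dose and 0 of 12 for replicate number. Their summed level lay between 1607 CPM (30 µM replicate 6) and 1923 CPM (10 µM replicate 5). Top2a (445 CPM, log2 fold change −0.03 ± 0.07 at 30 µM), Mki67 (334 CPM, −0.09 ± 0.10), Cdk1 (151 CPM, −0.04 ± 0.06) and Mcm2 (149 CPM, 0.14 ± 0.10) had the highest CPM.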

How the data were processed

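Per the labels, MEFs received 0, 10 or 30 µM uracil for 24 h, RNA was prepared with Trizol and libraries were made with a stranded kit after removal of ribosomal RNA. The authors deposited raw counts per Ensembl gene and library for 18 libraries, with no normalisation, and all 18 columns matched a sample by name (0 did not). The submitters' processing notes name FastQC, HISAT2, SAMtools 1.2 and HTSeq, and a build, GRCh38, which is a human one, while the gene identifiers are those of mouse. The annotation release and strand setting of the counting are not given in the sources used here, so counts of overlapping genes are uncertain. The 5 closing entries, which hold uncounted reads (35.4% to 77.0% of a library's total), were kept out of library sizes.

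Of the 55487 identifiers, 51731 were given a name and a position by GENCODE M39 (GRCm39). Sequences are RefSeq's on GRCm38.p6. Counts were analysed with edgeR 4.0.16 in R 4.3.3 (filterByExpr, TMM scaling, robust quasi-likelihood fit of dose over all 18 libraries, Benjamini-Hochberg adjustment over 13865 genes, threshold 0.05). Standard errors are the log2 fold change over the root of its F statistic. CPM is TMM-scaled, and log2 CPM used a prior count of 2. Ratios used a pseudocount of 0.5 CPM. Exact permutation tests, two-sided, ran over 924 splits in scipy 1.17.1. The code was tested on simulated data.

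Other settings were DESeq2 1.42.0, library totals alone, no filter, leaving out 2 or 3 libraries with many unaligned reads, each library in turn, and the replicate number as a block. The members, the gene lists and the rule for naming genes were chosen with earlier results of these data known. By that rule the 10 members are named, with genes overlapping them, the 4 genes of highest CPM and the 3 of smallest p at 30 µM in each list, the 5 genes most correlated with Mest, and Fn1 beside the libraries that stand apart. Markers of other cell types are named by level only.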

Additional observations from a re-analysis of the deposited data

Results flagged for a closer look

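In groups of 6 libraries, a library was singled out where its gap to the nearest other, divided by the range of the group, was over Dixon's 95% critical value for 6 samples. Of 36 groups (10 genes and 2 ratios at 3 doses) 11 were singled out, where chance gives about 1 in 20, or 1.8 here. All 11 belong to the 3 libraries with many unaligned reads, 3 to control replicate 1, 4 to 10 µM replicate 6 and 4 to 30 µM replicate 6.

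Meg3 was singled out in all 3, as the highest of its dose, at 81.9 CPM in control replicate 1, 65.1 CPM in 10 µM replicate 6 and 96.9 CPM in 30 µM replicate 6. Plagl1 was the highest in control replicate 1 (96.7 CPM) and in 30 µM replicate 6 (50.8 CPM). Grb10 was the highest of the control libraries in control replicate 1 (1585 CPM). Igf2 was the highest in 10 µM replicate 6 (1.11 CPM) and in 30 µM replicate 6 (2.17 CPM), on 16 and 14 counts. The log2 ratio of H19 to Igf2 was accordingly the lowest there (6.88 and 6.07). Cdkn1c was the lowest of its dose in 10 µM replicate 6 (0.209 CPM), on 3 counts. What the unaligned reads have to do with these values was not tested.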

How the results depend on the processing

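In edgeR and DESeq2, 0 members and 0 of the other imprinted genes passed the threshold for dose under every setting run, each library left out in turn included (0 to 0). Of 126 log2 fold changes under settings other than leaving out 1 library, 117 kept their sign and 9 reversed. Without 2 libraries they were 0.34 for Mest and 0.019 for Grb10 at 30 µM and 0.18 for Plagl1 at 10 µM. Without 3 libraries they were 0.33 for Mest and 0.016 for Grb10 at 30 µM and 0.030 for Dlk1 at 10 µM. Peg3 at 10 µM was 0.0066 with library totals alone and 0.011 without the filter. Leaving out 1 library reversed 33 of 324. The ranges at 10 µM were −0.20 to 0.26 for Mest, −0.53 to 0.17 for Plagl1, −0.094 to 0.043 for Peg3 and −0.059 to 0.14 for Ndn. Those at 30 µM were −0.26 to 0.21 for Mest, −0.58 to 0.15 for Plagl1, −0.12 to 0.014 for Peg3, −0.018 to 0.21 for Dlk1 and −0.33 to 0.070 for Meg3. For Mest, the libraries left out change which replicate numbers each group holds. For the other genes the cause was not tested. The difference in log2 ratio between 30 µM and control ranged from 0.13 to 0.87 for H19 to Igf2 and from −0.39 to −0.12 for Meg3 to Dlk1 when 1 library was left out.

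Members differing by replicate number were 3 to 5 when 1 library was left out and 4 to 6 otherwise. Nothing is read from these counts either, since Mest was chosen by this contrast. Over all genes 1745 of 13865 (12.6%) differed by number, against 2932 of 29386 in DESeq2, a smaller share (9.98%). The share was higher without 2 libraries (3287 of 13935, 23.6%) and without 3 (2890 of 13888, 20.8%). It was also higher without control replicate 1 (3498 of 13977, 25%) and without control replicate 6 (3271 of 14019, 23.3%). With any other single library left out it was 9.08% to 11.9%. Member counts under these settings therefore stand beside different shares of all genes.

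With the replicate number as a block, 0 members passed for dose, as without it, and all genes with an unadjusted p under 0.05 at 30 µM went from 595 to 937. The block left the difference of the ratios at 0.34 and −0.24, with exact sign-flip p = 0.469 and 0.0625 (6 pairs, smallest possible 0.0312). With the block and without 3 libraries, Ndn at 10 µM was −0.00019. In that fit Meg3 was −0.17 ± 0.06 at 10 µM and −0.22 ± 0.06 at 30 µM (unadjusted p = 0.0134 and 0.00282 in edgeR). Dlk1 at 30 µM against 10 µM was 0.13 ± 0.05 (unadjusted p = 0.0114 in edgeR). In these 3 comparisons 3.72%, 4.35% and 4.84% of all genes were under an unadjusted p of 0.05, and 0 were called. For Mest the block gave 0.012 ± 0.051 at 10 µM (95% interval −0.097 to 0.12) and −0.017 ± 0.051 at 30 µM (−0.13 to 0.092), and 0.051 and −0.013 without 3 libraries, with smaller errors than for Grb10 (0.054) over 18 libraries. Same-numbered libraries deviated together in most pairs (median correlation 0.40, against −0.06 for other pairs), and 14 of 18 libraries correlated best with their own number. The criterion for using the block, a correlation over 0.1 in every pair, was missed, with 16 of 18 pairs over it (−0.10 to 0.71), and 12 of 13 without the 3 libraries. Low counts limit Igf2 (0 to 16 per library) and Cdkn1c (0 to 33 per library).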
